A study of Homo sapiens with 12 samples.

Results

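Transcript levels of wild-type A172 cells were read from 3 arrays, which are 3 of the 12 arrays in the series. A172 is a line of adherent cells that was derived from a glioblastoma, the most malignant of the astrocytic brain tumours. The study compared wild-type A172 cells, a mock line that stably carried the empty pcDNA3.1 vector, and the stable clones 7 and 8 that carried hHSS1 in the same vector. The 3 arrays were chosen by their sample titles and held non-transfected cells, grown in DMEM with fetal bovine serum and harvested after 4 days. They carried separate cultures of 1 cell line, so that the errors below are SDs between cultures and not between lines or patients. The titles gave the line as A172 while another label of the same samples spelled it A712. No comparison with the mock line or the clones was made, and the question was which genes these cells showed at a high, a middling or a near-background level before any transfection.

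The arrays were GeneChip Human Gene 1.0 ST (Affymetrix), on which each gene is read by a set of probes spread over its exons. The level of a gene is the deposited log2 value of its probe set, and its rank is its place among the 18417 genes that had a probe set with a single gene symbol, with rank 1 the brightest. Probe sets differ in how strongly they bind, so that a rank orders array signals and not numbers of transcripts, and no fold difference between genes is given. Each array averaged over all cells of a culture, so that a low level in every cell and a higher level in a few cells cannot be told apart.

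Glioblastoma cells usually keep part of the program of astroglia, the supporting cells of the brain, such as the intermediate filament GFAP and the glutamate transporters. Many tumours and most serum-grown lines also carry a mesenchymal program of filaments, matrix proteins and migration genes. Receptor tyrosine kinases such as EGFR, PDGFRA and MET, together with the RB1 and CDKN2A brake on the cell cycle, are the genes most often altered in this tumour.

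The table held no detection calls, so background was judged from genes that a brain tumour line has no known reason to use. The 341 olfactory receptor genes, which encode odour sensors of the nose, had a median level of 6.63, and their 95th percentile, 8.25, was taken as the lower limit. The 116 genes for keratin-associated proteins of hair, taste receptors and beta-defensins were brighter, with a median of 7.59 and a 95th percentile of 10.07, which was taken as the upper limit. A gene at or below the lower limit is called near background, the top 10.0% of genes (level 11.71 and above) are called high, and the genes between these are called middling. By this rule 1842 genes (10.0%) were high, 10486 (56.9%) middling and 6089 (33.1%) near background, and 6400 (34.8%) lay above the upper limit. The counts for each gene list below are to be read beside these shares. Bands follow the mean over the 3 arrays, so that a gene near a limit can lie on either side of it on single arrays. Middling genes below the upper limit were no brighter than some hair genes, so their level does not show that the gene was transcribed. Of 30 genes specific to other organs, such as ALB (albumin of the liver, 5.96 ± 0.06, SD, n = 3 arrays here and throughout) and HBB (a haemoglobin chain, 8.04 ± 0.07), 3 passed the lower limit and 0 the upper.

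**Figure D1:**
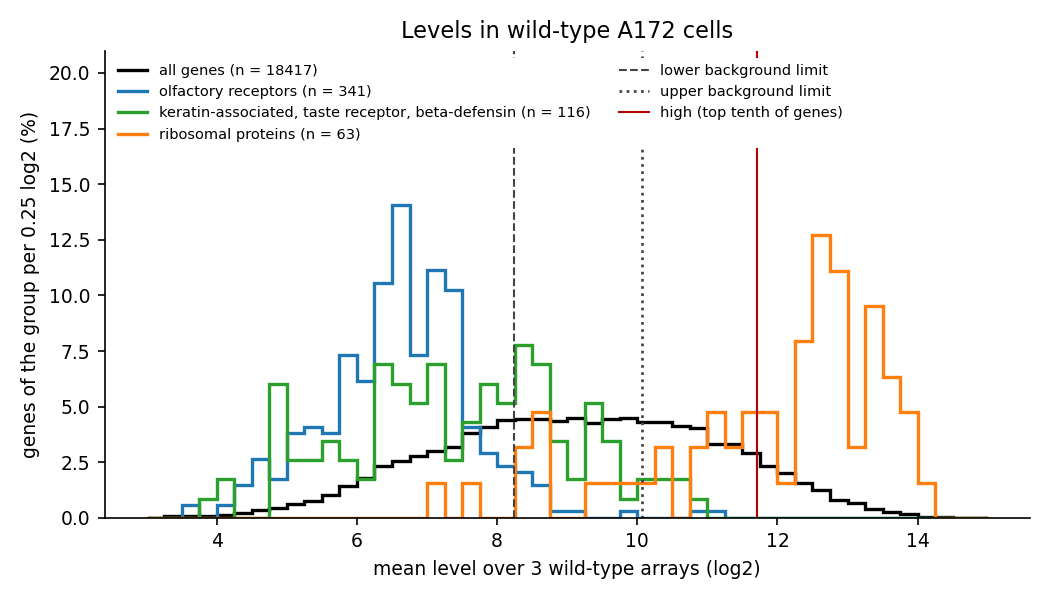
Share of genes (y axis, % of each group per 0.25 log2) by mean level over the 3 wild-type arrays (x axis, log2), for all genes, olfactory receptors, the hair, taste and defensin genes, and cytosolic ribosomal proteins. The dashed and dotted lines are the lower (8.25) and upper (10.07) background limits and the red line is the start of the high band (11.71). Olfactory receptors lie mostly below the dashed line and ribosomal proteins mostly right of the red line.

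The 3 cultures were close to each other. The rank correlation (Spearman's rho) across genes was between 0.9976 and 0.9982 for the 3 pairs of arrays, and 17854 genes (96.9%) were on the same side of the lower limit on each of the 3 arrays. The median SD of a gene was 0.05 in the high band, 0.07 in the middling band and 0.09 near background. Protein-coding genes were near background in 30.6% of cases, against 63.1% of lncRNA genes and 76.9% of miRNA genes.

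The 20 brightest genes were of many kinds. SPARC, a secreted glycoprotein that binds collagen, read 14.55, 14.56 and 14.49 on replicates 1, 2 and 3 and had rank 2. The chaperones HSPA8 (14.38 ± 0.02) and HSPB1 (14.36 ± 0.02), the tubulin TUBB (14.36 ± 0.02), the glycolytic enzyme GAPDH (14.35 ± 0.02), and the actins ACTG1 (14.33 ± 0.02) and ACTB (14.29 ± 0.05) followed. The top 20 also held the actin crosslinker ACTN4, ubiquitin (UBB), the elongation factor EEF1A1, the membrane proteins DCBLD2, LAPTM4A and CD81, S100A10, the metallothionein MT2A, the tubulin TUBB4B and the pseudogene RPL13AP5, whose near-identical parent gene makes its value uncertain. For 16 of these 20 genes the step to the next gene in the order was smaller than the larger of the SDs of both, so the order among them is not resolved. FAF2 stood at rank 1 (14.64 ± 0.02), but its other probe set read 12.86. PLCG2 (14.25 ± 0.06) had another probe set at 9.73, and the 6 probe sets of PTMA spanned 5.68 log2 units, so the levels of these 3 genes are uncertain. Of 63 cytosolic ribosomal protein genes, 41 were high and 2 near background (10.0% and 33.1% over all genes). The 2 were RPS29 (7.53 ± 0.09) and RPS4Y2 (7.11 ± 0.10), so that even a ribosomal protein gene can read near background here. Some of the high ones were so by their brightest probe set only. Examples are RPL34 (12.73, its dimmest 7.71), RPS15 (12.68 and 8.51) and RPL12 (12.83 and 9.07). RPL32, the gene to which the study scaled its quantitative PCR, read 9.80, 9.80 and 9.81, in the middling band below the upper limit. Of 17 common housekeeping genes 12 were high and 16 lay above the upper limit (10.0% and 34.8% over all genes), RPL32 being the exception.

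Of 26 astroglial markers 2 were high, 11 middling and 13 near background, and 7 lay above the upper limit (10.0%, 56.9%, 33.1% and 34.8% over all genes), with a list median of 8.35 beside 9.21 over all genes. GFAP, the filament by which astrocytes are stained, read 8.72, 8.57 and 8.68 and had rank 10986. On each array GFAP was above the lower limit and well under the upper, where hair and taste receptor genes also lie. S100B, a calcium-binding protein of astrocytes, read 6.39, 6.04 and 6.43. The water channel AQP4 read 6.27, 6.10 and 6.38. Both were near background on each array, as were the glutamate transporters SLC1A2 (6.84 ± 0.03) and SLC1A3 (6.77 ± 0.09), the folate enzyme ALDH1L1 (7.97 ± 0.02), the fatty acid carrier FABP7 (6.79 ± 0.12), the potassium channel KCNJ10 (7.10 ± 0.11) and the gap junction gene GJB6 (7.34 ± 0.09). The transcription factor PAX6 (7.96 ± 0.09) and the astrocyte adhesion gene HEPACAM (7.92 ± 0.07) were near background too. Other members were bright. The secreted chaperone CLU read 12.26, 12.37 and 12.27, and the transcription factor NFIX read 12.06, 12.06 and 12.03. GLUL, the glutamine synthetase that astrocytes use to clear glutamate, stood at 11.68 ± 0.04 by 1 probe set and 10.07 by the other. NFIB (11.48 ± 0.04), ID3 (10.92 ± 0.07), the gliogenic factor SOX9 (10.60, 10.79 and 10.69) and the gap junction gene GJA1 (10.12 ± 0.14) also lay above the upper limit. GJA1 did so by its mean, and it read 9.97 on replicate 2.

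Markers used for neural and glioma stem cells split widely. Of 18 measured, 7 were high, 10 middling and 1 near background, and 10 lay above the upper limit (10.0%, 56.9%, 33.1% and 34.8% over all genes). The sialomucin PODXL (13.90 ± 0.03, rank 35), the hyaluronan receptor CD44 (13.16, 13.22 and 13.22), ID1 (12.61 ± 0.09), the adhesion molecules L1CAM (12.46 ± 0.07) and ALCAM (12.35 ± 0.06), NOTCH2 (12.43 ± 0.09) and ITGA6 (11.95 ± 0.08) were high. The factors that define the stem state in glioma were lower. NES, the filament nestin, read 9.98, 10.11 and 10.16 and straddled the upper limit. SOX2 read 8.95, 8.77 and 8.97, and OLIG2 stood at 8.41 ± 0.08, both between the limits. PROM1, the gene of the stem cell surface marker CD133, read 5.97, 5.78 and 5.85 and had rank 17605. PROM1 was the 1 member near background, far below the other 17.

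Oligodendroglial, endothelial and leukocyte markers, included as checks for other cell types, lay above the upper limit in few cases, where 34.8% of all genes did. For oligodendroglia 2 of 15 markers lay above it, the myelin enzyme CNP (12.03 ± 0.01) and the proteoglycan CSPG4 (10.67 ± 0.11), while MBP (7.08 ± 0.19), MOG (7.15 ± 0.15) and MAG (7.30 ± 0.23) of the myelin sheath were near background and SOX10 read 8.61, 8.53 and 8.54. For endothelium 2 of 14 did, SOX18 (10.30 ± 0.11) and the angiopoietin receptor TEK (10.12 ± 0.09, with 10.03 on replicate 1), while PECAM1 (6.69 ± 0.07), VWF (7.49 ± 0.14) and KDR (7.28 ± 0.04) were near background. ROBO4 (10.07 ± 0.01) lay just under the upper limit. EGFL7 (9.61), SOX17 (9.08 ± 0.12), CLDN5 (8.78 ± 0.08), CDH5 (8.33 ± 0.03) and ESAM (8.32 ± 0.02) lay between the limits. For leukocytes and microglia 1 of 15 lay above the upper limit, the lysosomal protein CD68 (11.53, 11.63 and 11.58), which is found in many cells besides macrophages. TYROBP (9.60 ± 0.06), SPI1 (8.77 ± 0.13), ITGAX (8.73 ± 0.11) and TMEM119 (8.26 ± 0.11) lay between the limits. TMEM119 did so by its mean, and it read 8.19 on replicates 2 and 3. The pan-leukocyte phosphatase PTPRC read 7.53, 7.92 and 7.77, and AIF1, P2RY12 and CX3CR1 of microglia stood between 6.25 and 6.84. Near background were 7 of 15 oligodendroglial, 6 of 14 endothelial and 10 of 15 leukocyte and microglial markers, beside 33.1% of all genes.

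Of 22 neuronal markers 2 were high, 10 middling and 10 near background (10.0%, 56.9% and 33.1% over all genes). UCHL1, a deubiquitinase of neurons, read 13.11, 13.21 and 13.18, and the neurofilament NEFL read 12.58, 12.62 and 12.50. The synaptic calcium sensor SYT1 (10.95 ± 0.10) and the neuronal enolase ENO2 (10.90 ± 0.07) were the other members above the upper limit. That made 4 of 22, beside 34.8% of all genes. The 10 members near background included the heavier neurofilaments NEFM (7.54 ± 0.04) and NEFH (7.31 ± 0.09), the vesicle protein SYP (8.04 ± 0.03), SNAP25 (7.86 ± 0.18), DCX (7.05 ± 0.06) and ELAVL4 (6.20 ± 0.07). RBFOX3, the NeuN antigen, stood at 8.76 ± 0.11 by its brightest probe set and 7.04 by its dimmest.

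The mesenchymal list was the brightest of the 8 lineage lists by median, 11.99. Of 38 markers and factors 21 were high, 15 middling and 2 near background, and 33 lay above the upper limit (10.0%, 56.9%, 33.1% and 34.8% over all genes). S100A10 (14.17 ± 0.02, rank 15) and the phospholipid-binding annexin ANXA1 (14.01 ± 0.03, rank 23) led it. Vimentin (VIM), the filament of mesenchymal cells and of glioma, read 13.70, 13.73 and 13.73. N-cadherin (CDH2) read 13.42, 13.38 and 13.45. The caveolar protein CAV1 (13.69 ± 0.08), the galectin LGALS1 (13.59 ± 0.01), ANXA2 (13.29 ± 0.04) and the transcription factor STAT3 (13.15 ± 0.04) were high as well. Among the factors that drive the switch from epithelial to mesenchymal form, SNAI2 (11.62 ± 0.06), ZEB1 (11.34 ± 0.05) and TWIST1 (10.78 ± 0.05) lay above the upper limit, TWIST2 (9.89 ± 0.03) and SNAI1 (8.80 ± 0.09) lay between the limits, and the 2 probe sets of ZEB2 read 11.22 and 7.92. The 2 members near background were CHI3L1 (8.15 ± 0.07), a secreted glycoprotein often used to mark mesenchymal glioblastoma, and the matrix protein TGFBI (7.94 ± 0.09).

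Of 17 epithelial markers 2 were high, 10 middling and 5 near background, where 33.1% of all genes were near background. E-cadherin (CDH1) read 7.22, 7.10 and 7.26, and EPCAM (7.85 ± 0.07), the epithelial regulator GRHL2 (7.02 ± 0.03) and the keratins KRT5 (8.12 ± 0.03) and KRT20 (6.67 ± 0.05) were also near background. KRT18 read 13.50, 13.52 and 13.46 and its partner KRT8 stood at 13.24 ± 0.04, ranks 108 and 181. KRT18 and KRT8 pair into the filaments of simple epithelia, and no array showed either outside the high band. MUC1 (10.59 ± 0.05) was the remaining epithelial gene above the upper limit. The other 9 above the lower limit lay between the limits, among them ELF3 (9.48 ± 0.11), the claudin CLDN3 (9.33 ± 0.06), KRT7 (9.01 ± 0.04) and KRT19 (8.91 ± 0.12).

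**Figure D2:**
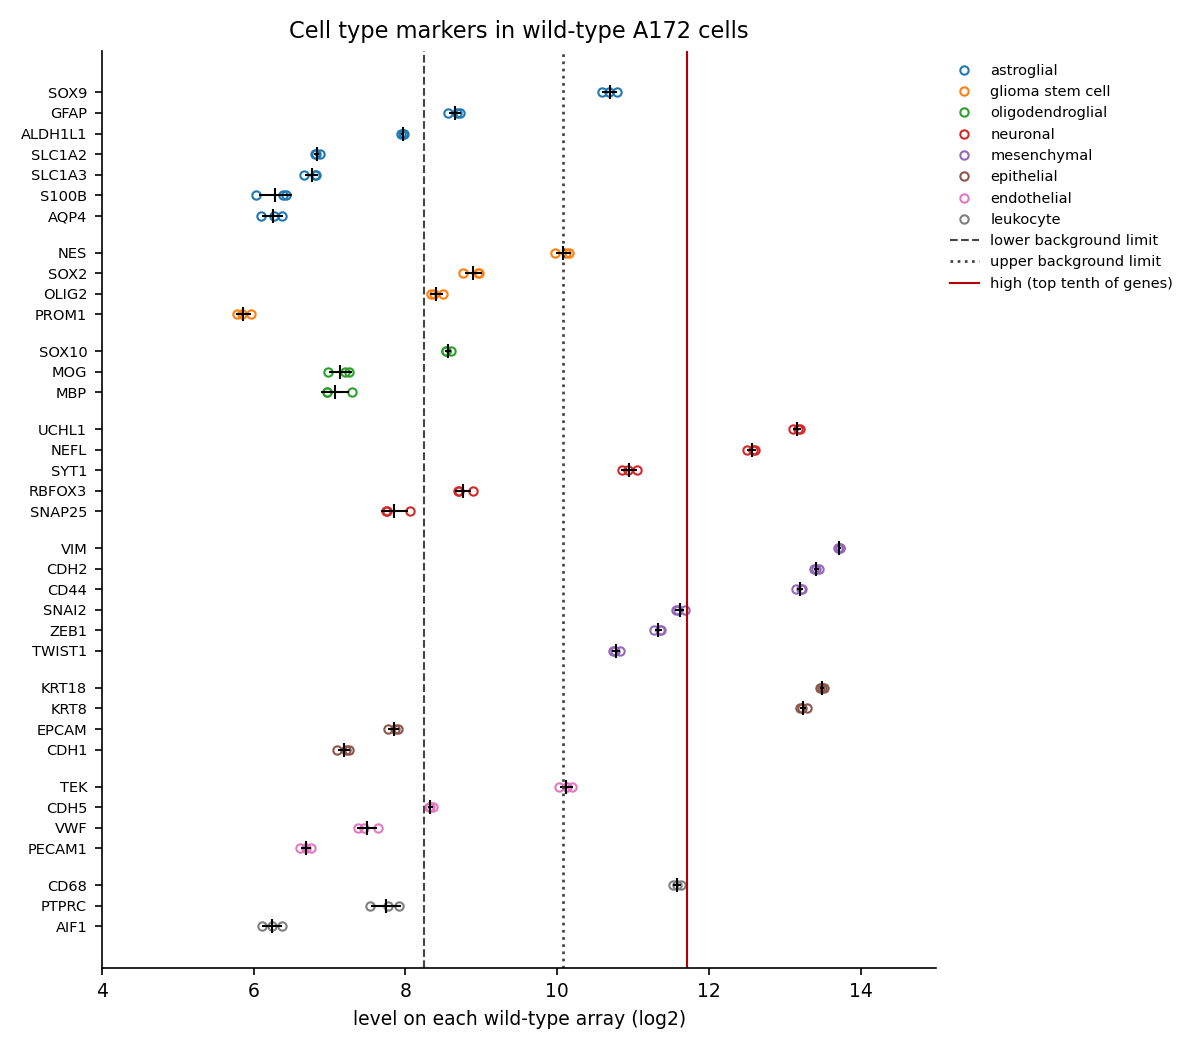
Level on each wild-type array (x axis, log2, open circles) with the mean (tick) and SD (bar) for cell type markers (y axis), coloured by cell type. The dashed, dotted and red lines are the lower limit, the upper limit and the start of the high band. VIM, CDH2, CD44, KRT18, KRT8, UCHL1 and NEFL lie right of the red line, while GFAP, SOX2 and OLIG2 lie between the limits and S100B, AQP4, PROM1 and CDH1 left of the dashed line.

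Promoter sequences from RefSeq (GRCh38.p14), 250 bases before to 50 after each start site, were at hand for 13770 of the 16902 protein-coding genes. A promoter was called CpG-rich when its GC content was at least 50% and its ratio of observed to expected CG pairs at least 0.6. In the high band 85.0% of promoters were CpG-rich, in the middling band 77.9%, and near background 35.7%, against 66.2% of all. The motif TATAAA, searched on the strand of the gene with its first base 20 to 40 bases before the start, was in 2.89% of high, 2.03% of middling and 6.47% of near-background promoters, and in 3.44% of all. When the genes were put into 10 equal groups by level, the CpG-rich share went from 28.2% in the dimmest group to 87.8% in the next to brightest and 84.9% in the brightest. The motif was in 7.41% of the dimmest group, 1.09% of the next to brightest and 3.05% of the brightest. The reference genes for background differed in base content as well, with a CpG-rich share of 1.45% for olfactory receptors and 0.00% for the hair, taste and defensin genes. Whether base content of the probes moves the signal was not tested, since no probe sequences were used here.

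Of the promoters shown, 1 is of a bright gene with the motif and 1 of a dim gene that is CpG-rich. The letters are the 250 bases before the start, on the strand of the gene. ANXA1 is the brightest listed gene whose promoter holds the motif (TATAAA in capitals, first base 31 before the start) and had 0 CG pairs over the window, at chr9:73151615-73151864 on the + strand. PROM1 is the dimmest lineage marker with a CpG-rich promoter (13 CG pairs in capitals in the part shown), at chr4:16084024-16084273 on the - strand. A match is a description of the letters only.
ANXA1: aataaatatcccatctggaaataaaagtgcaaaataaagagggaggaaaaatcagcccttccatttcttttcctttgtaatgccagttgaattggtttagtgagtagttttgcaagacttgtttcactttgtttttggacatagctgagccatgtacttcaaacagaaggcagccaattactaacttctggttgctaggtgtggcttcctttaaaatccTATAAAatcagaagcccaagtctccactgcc
PROM1: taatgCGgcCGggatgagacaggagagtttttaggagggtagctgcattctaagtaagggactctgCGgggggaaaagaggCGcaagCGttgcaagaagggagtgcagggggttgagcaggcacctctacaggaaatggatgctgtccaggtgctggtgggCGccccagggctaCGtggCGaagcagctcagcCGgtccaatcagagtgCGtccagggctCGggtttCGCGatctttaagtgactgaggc

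Of 700 listed genes with a promoter entry, 56 held the motif at that place, 10 of 112 in the high band, 15 of 354 in the middling band and 31 of 234 near background. Over all protein-coding promoters the motif was in 3.44%, and in 2.89%, 2.03% and 6.47% of these bands in that order. High listed genes with the motif included DKK1, CCN2, THBS2, TGFB2 and POSTN, and near-background ones FLT1, IFNB1, MMP7, MSTN and EPGN. Of 40 near-background lineage markers with a promoter entry 12 (30.0%) were CpG-rich, beside 35.7% of all near-background promoters. They included MBP, KCNJ10, ERG, KDR and GAD2.

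Receptor tyrosine kinases pass growth factor signals into the cell, and 53 were measured. Of these 4 were high, 28 middling and 21 near background, and 17 lay above the upper limit. Over all genes these shares were 10.0%, 56.9%, 33.1% and 34.8%. AXL, the receptor of GAS6, read 13.51, 13.56 and 13.52 and had rank 98. The collagen receptor DDR2 stood at 13.14 ± 0.05 by 1 probe set and 11.36 by the other. The Wnt co-receptor RYK stood at 12.46 ± 0.03. EGFR, the kinase most often amplified in glioblastoma, read 12.21, 12.27 and 12.26 and had rank 965. The arrays of these 4 receptors did not overlap. PDGFRB came next at 11.62, 11.79 and 11.63, followed by EPHA4 (11.44 ± 0.10), FGFR1 (11.41 ± 0.06) and MET (11.18, 11.34 and 11.42), and the arrays of the last 3 overlapped. EPHB4 (11.26 ± 0.03), DDR1 (11.02 ± 0.08), ERBB2 (10.87 ± 0.07), EPHA2 (10.79 ± 0.08) and IGF1R (10.76 ± 0.05 by 1 probe set and 8.63 by the other) were middling and above the upper limit. PDGFRA, which is amplified in another share of glioblastomas, read 7.51, 7.24 and 7.33, near background on each array, in contrast to PDGFRB. The VEGF receptors KDR (7.30, 7.31 and 7.24) and FLT1 (8.19 ± 0.04), and ERBB3 (7.58 ± 0.03), ERBB4 (7.96 ± 0.04), NTRK2 (6.90 ± 0.04) and NTRK3 (7.18 ± 0.07) were near background as well. The dimmest members were EPHA6 (6.01 ± 0.11), FLT3 (6.25 ± 0.07) and EPHA3 (6.39 ± 0.04).

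**Figure D3:**
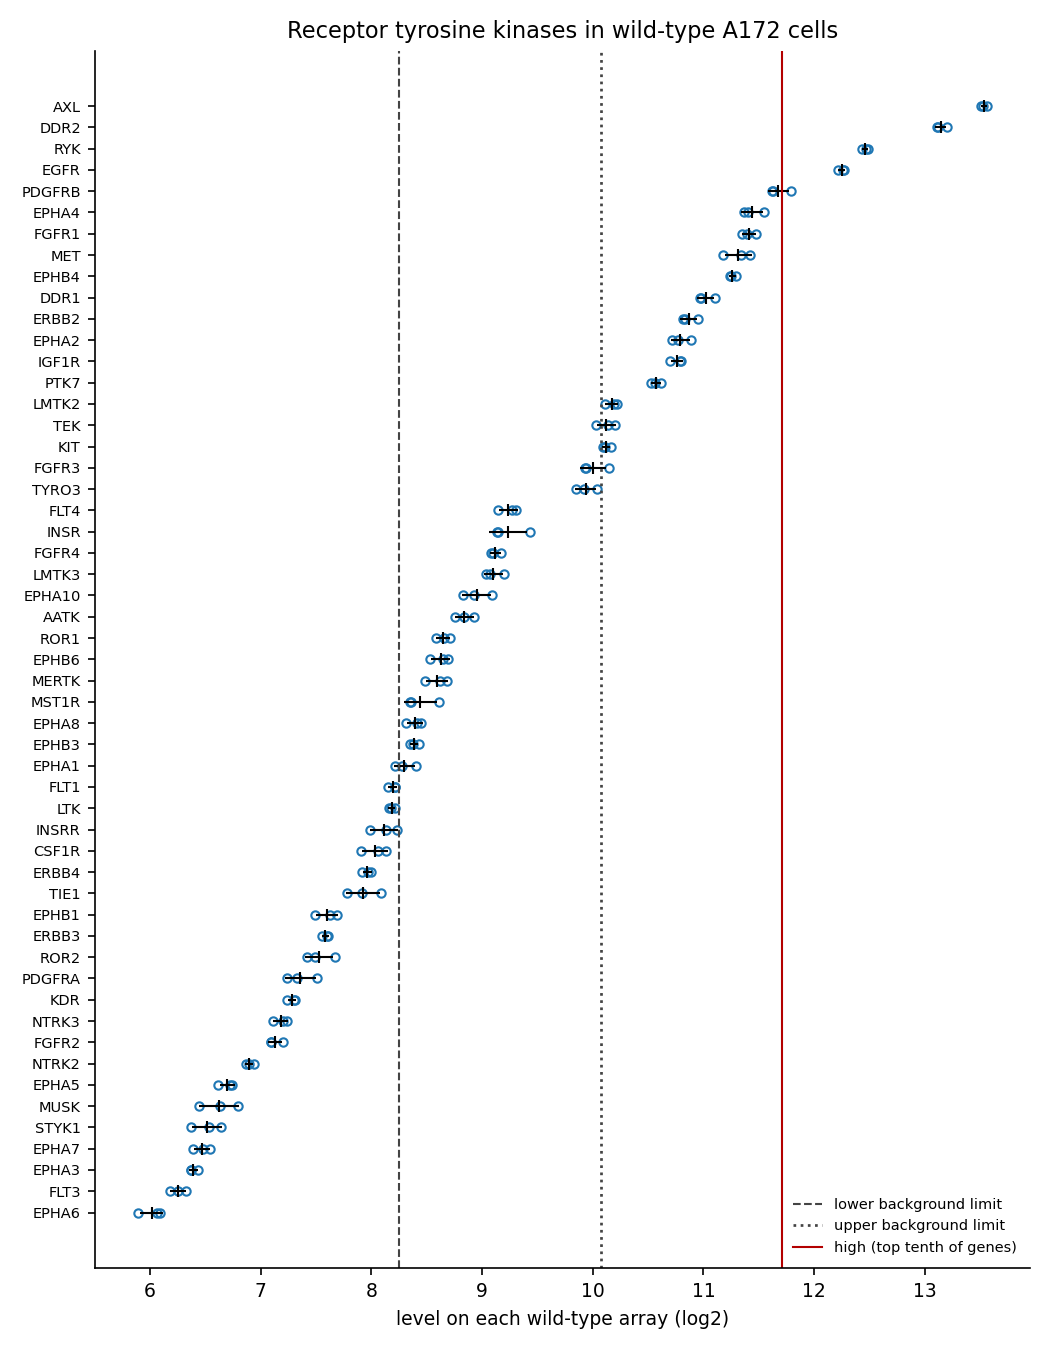
Level of 53 receptor tyrosine kinases (y axis, in order of mean) on each wild-type array (x axis, log2, open circles), with the mean (tick) and SD (bar). AXL, DDR2, RYK and EGFR lie right of the red line that starts the high band at 11.71, and 21 kinases from FLT1 to EPHA6 lie left of the dashed lower limit at 8.25.

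The receptors of the TGF-beta family were led by the BMP receptor BMPR2 (12.91, 13.00 and 13.00) and the co-receptor ENG (12.77 ± 0.05). The TGF-beta receptors TGFBR2 (11.33 ± 0.08) and TGFBR1 (10.33 ± 0.05) and the activin receptor-like kinase ACVR1 (10.16 ± 0.04) completed the 5 of 13 above the upper limit, beside 34.8% of all genes. BMPR1B (6.55 ± 0.09), ACVR1C (7.42 ± 0.03), ACVR2B (7.82 ± 0.10) and AMHR2 (7.91 ± 0.04) were near background.

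Of 38 cytokine and death receptors 5 were high, 25 middling and 8 near background, and 15 lay above the upper limit. The shares over all genes were 10.0%, 56.9%, 33.1% and 34.8%. The high members were the TWEAK receptor TNFRSF12A (12.80 ± 0.03), the oncostatin receptor OSMR (12.42, 12.67 and 12.46), the interleukin-7 receptor IL7R (12.35 ± 0.03), IL10RB (12.13 ± 0.02) and IL6ST (12.04 ± 0.01), the signalling chain shared by the interleukin-6 family. IL13RA2, a decoy receptor for interleukin-13 used as a target in glioma, read 11.63, 11.47 and 11.77, around the edge of the high band. The shared chain IL6ST was thus bright while IL6R, which binds interleukin-6 itself, stood at 8.39 ± 0.02, just above the lower limit. IL1RL1 (5.81 ± 0.03), PRLR (6.55 ± 0.06), the TRAIL receptor TNFRSF10A (7.43 ± 0.21) and IL1R1 (7.62 ± 0.07) were near background, whereas the other TRAIL receptor TNFRSF10B stood at 11.53 ± 0.07.

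Integrins, the receptors that hold cells to matrix, had 5 high members of 25, beside 10.0% of all genes. ITGA3, which pairs with ITGB1 to bind laminin, read 13.56, 13.65 and 13.59 and had rank 85. The fibronectin receptor chain ITGA5 (12.94 ± 0.01), the common chain ITGB1 (12.65 ± 0.04), the vitronectin receptor chain ITGAV (12.13 ± 0.02) and the laminin receptor chain ITGA6 (11.95 ± 0.08) were the rest. ITGB3 (7.00 ± 0.09), the usual partner of ITGAV on vessels, was the dimmest, while ITGB5 (11.18 ± 0.06) and ITGB8 (10.78 ± 0.08), which also pair with ITGAV, lay above the upper limit. The leukocyte chains ITGAL (7.46 ± 0.13) and ITGAM (7.78 ± 0.14) were near background.

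Of 82 G protein-coupled receptors 6 were high, 43 middling and 33 near background, and 17 lay above the upper limit, beside 34.8% of all genes. The orphan receptor GPRC5B read 12.82, 12.82 and 13.01. The oxytocin receptor OXTR read 12.86, 12.83 and 12.91 and had rank 383. The adhesion receptors ADGRE5 (12.18 ± 0.06) and ADGRG6 (12.14 ± 0.04), GPRC5A (12.05 ± 0.05) and the Wnt receptor FZD2 (11.75 ± 0.04) were the other high members. The chemokine receptor CXCR4 read 8.75, 9.01 and 8.53, between the limits and among the wider spreads of this list. CXCR2 (5.85 ± 0.05), CCR2 (5.87 ± 0.18), AGTR2 (5.47 ± 0.11) and the endothelin receptor EDNRB (6.08 ± 0.03) were near background. Of 39 transmitter-gated channels 0 were high and 2 lay above the upper limit, the acetylcholine receptor chain CHRNB1 (10.78 ± 0.08) and the GABA receptor chain GABRA3 (10.25 ± 0.17). The AMPA receptor chains GRIA1 to GRIA4 of glutamate signalling stood between 5.90 and 6.99, near background.

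Growth factors were high in 2 of 41 cases, middling in 22 and near background in 17 (10.0%, 56.9% and 33.1% over all genes). Progranulin (GRN) read 13.43, 13.45 and 13.48 and had rank 116. FGF2, which acts through FGFR1, read 12.70, 12.57 and 12.65. VEGFC (11.44 ± 0.03), NRG1 (11.37 ± 0.12), HBEGF (11.27 ± 0.15), VEGFB (10.63 ± 0.08), PDGFA (10.60 ± 0.03), PDGFC (10.41 ± 0.07) and VEGFA (10.20 ± 0.06) were among the 14 of 41 above the upper limit, beside 34.8% of all genes. HGF, the ligand of MET, read 6.18, 6.11 and 5.92. IGF1 (6.04 ± 0.11), FGF7 (5.87 ± 0.06), FGF9 (5.83 ± 0.07) and the EGFR ligands TGFA (6.75 ± 0.08), BTC (6.57 ± 0.09) and EPGN (4.11 ± 0.07) were also near background.

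The TGF-beta family held FSTL1 (13.95, 13.95 and 13.89, rank 29), TGFB2 (13.06, 13.07 and 13.02) and FSTL3 (12.33 ± 0.10) in the high band, 3 of 37, beside 10.0% of all genes. TGFB2 is a known inhibitor of T cells in glioblastoma. Of the related ligands TGFB1 stood at 11.24 ± 0.10, and TGFB3 at 8.12 ± 0.05 was near background. Antagonists of BMP differed, with NOG at 11.39 ± 0.06, CHRD at 8.75 ± 0.03 and GREM1 at 7.70 ± 0.14. The myostatin gene MSTN (5.39 ± 0.17) was the dimmest.

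Cytokines and chemokines were the dimmest of the secreted lists by median, 7.78, with 2 of 49 high and 30 near background (10.0% and 33.1% over all genes). CCL2, which draws monocytes, read 11.84, 11.95 and 11.82. TNFSF4, the ligand of OX40 on T cells, stood at 11.85 ± 0.04. IL34 (11.27 ± 0.04) and CSF1 (10.81 ± 0.03), the ligands of the macrophage receptor CSF1R, CTF1 (11.04 ± 0.05), IL32 (10.56 ± 0.08) and LIF (10.38 ± 0.07) were the rest above the upper limit, 7 in all. IL6 read 7.85, 7.60 and 7.77, and CXCL8 read 8.16, 7.73 and 7.88. Both are often secreted by glioma lines, and both were near background on these arrays. CXCL12 (7.30 ± 0.10), IL1B (6.92 ± 0.27), CXCL10 (5.29 ± 0.14) and IL33 (5.33 ± 0.15) were lower still.

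Among Wnt ligands and antagonists the antagonist DKK1 read 13.98, 13.97 and 13.97 and had rank 26. DKK3 stood at 12.84 ± 0.04 by 1 probe set and 7.79 by the other. Of the Wnt ligands themselves, WNT9A (10.69 ± 0.04) and WNT3 (10.12 ± 0.05) lay above the upper limit, and WNT5A (9.38 ± 0.14) lay between the limits. DKK2 (7.25 ± 0.01), SFRP2 (6.50 ± 0.05), WIF1 (6.68 ± 0.09) and RSPO3 (6.32 ± 0.17) were near background.

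Secreted proteases and their inhibitors had 15 high members of 54, with 26 middling and 13 near background (10.0%, 56.9% and 33.1% over all genes). The metalloprotease inhibitors TIMP2 (13.59, 13.63 and 13.63) and TIMP1 (12.89 ± 0.03), tissue plasminogen activator (PLAT, 13.43, 13.47 and 13.56), the lysosomal proteases CTSD (13.45 ± 0.05) and CTSB (13.17 ± 0.01), and the membrane sheddases ADAM9 (13.13 ± 0.03) and ADAM10 (12.78 ± 0.05) led. The gelatinases differed, with MMP2 at 11.71, 11.84 and 11.69 and MMP9 at 7.89, 7.92 and 7.85. The activator of MMP2, MMP14, stood at 11.19 ± 0.10. The urokinase receptor PLAUR (11.89 ± 0.04) was high and its ligand PLAU (8.97 ± 0.04) lay between the limits. MMP8 (5.13 ± 0.13), MMP12 (5.54 ± 0.06) and MMP7 (6.37 ± 0.10) were near background.

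Matrix genes ranged over the whole scale. Of 36 collagens 3 were high, 21 middling and 12 near background, and 12 lay above the upper limit. Among all genes the shares were 10.0%, 56.9%, 33.1% and 34.8%. The fibrillar chains COL1A2 (12.70, 12.80 and 12.65), COL5A2 (12.31 ± 0.07) and COL3A1 (12.15 ± 0.03) were high. COL1A1, the other chain of type I collagen, read 10.50, 10.52 and 10.41. In type VI collagen COL6A1 (11.59 ± 0.03) and COL6A2 (10.99 ± 0.07) lay above the upper limit and COL6A3 (7.67 ± 0.20) near background. In the basement membrane collagen IV, COL4A2 (10.80 ± 0.07) and COL4A1 (9.88 ± 0.01) stood above COL4A5 (8.35 ± 0.02), while COL4A3 (7.92 ± 0.14), COL4A4 (7.89 ± 0.07) and COL4A6 (7.63 ± 0.19) were near background.

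Of 15 laminin and basement membrane genes 8 lay above the upper limit, beside 34.8% of all genes. Behind SPARC came nidogen NID1 (12.56 ± 0.04), the laminin chains LAMB1 (12.54 ± 0.06), LAMC1 (12.42 ± 0.06), LAMB2 (11.66 ± 0.09) and LAMA5 (11.03 ± 0.10), and the proteoglycans AGRN (10.97 ± 0.07) and HSPG2 (10.75 ± 0.06). NID2 (7.05 ± 0.03), LAMB3 (8.10 ± 0.10) and LAMB4 (6.65 ± 0.03) were near background.

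Matrix glycoproteins had 11 high members of 45, beside 10.0% of all genes. The YAP targets CCN2 (13.57, 13.61 and 13.56) and CCN1 (12.22 ± 0.08), the thrombospondins THBS2 (13.26 ± 0.05) and THBS1 (12.29 ± 0.05), fibrillin FBN1 (12.94 ± 0.07), periostin POSTN (12.69 ± 0.11) and the insulin-like growth factor binding proteins IGFBP5 (12.03 ± 0.10) and IGFBP7 (11.89 ± 0.07) were among them. Fibronectin (FN1) read 10.88, 11.02 and 11.04. Tenascin-C (TNC), a matrix protein that is abundant in glioblastoma tissue, read 7.64, 7.64 and 7.72 and had rank 14094, near background on each array. The brain tenascin TNR (7.29 ± 0.17) and the matrix Gla protein MGP (4.53 ± 0.07) were near background as well.

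Proteoglycans were led by SRGN (12.27 ± 0.07) and the glypican GPC1 (12.10 ± 0.05), and 8 of 27 lay above the upper limit, beside 34.8% of all genes. The brain proteoglycans BCAN (8.48 ± 0.16) and NCAN (8.16 ± 0.14) stood just above and just below the lower limit, and versican (VCAN) stood at 9.68 ± 0.13. Decorin (DCN), a connective tissue proteoglycan, read 5.93, 6.24 and 6.14, and OGN (6.06 ± 0.08), ASPN (5.93 ± 0.09) and OMD (4.69 ± 0.09) of the same family were also near background. Enzymes that modify matrix were brighter, with 9 of 24 high and 17 above the upper limit (10.0% and 34.8% over all genes). The collagen crosslinker LOXL2 read 13.52, 13.56 and 13.57, LOXL1 stood at 12.56 ± 0.03 and LOX at 12.24 ± 0.02. The collagen chaperone SERPINH1 (12.67 ± 0.02) and the lysyl hydroxylases PLOD3 (12.43 ± 0.03) and PLOD2 (12.19 ± 0.05) were high, and the hyaluronan synthase HAS2 (6.57 ± 0.04) was near background while the hyaluronan receptor CD44 was at 13.20 ± 0.04.

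For 45 of 50 listed ligand and receptor pairs both genes were measured. In 11 pairs both genes lay above the upper limit. These were TGFB1 and TGFB2 with TGFBR2, FGF2 and FGF5 with FGFR1, HBEGF with EGFR, GAS6 (10.12 ± 0.12) with AXL, PDGFD (10.11 ± 0.04) with PDGFRB, VEGFA with NRP1 (11.92 ± 0.08), LIF with LIFR (11.61 ± 0.04), COL1A1 with DDR2, and THBS1 with CD47 (12.14 ± 0.06). In 16 pairs the receptor alone did, among them MET with HGF, EGFR with EGF (7.68 ± 0.09) and TGFA, IGF1R with IGF1, KIT (10.12 ± 0.03) with KITLG (6.66 ± 0.12), and OSMR with OSM (7.84 ± 0.08). In 9 pairs the ligand alone did, among them PDGFA and PDGFC with PDGFRA, VEGFA with KDR and FLT1, CCL2 with CCR2, CSF1 with CSF1R (8.03 ± 0.12) and NRG1 with ERBB3. In the remaining 9 pairs neither did, as for CXCL8 with CXCR2 and CXCL12 with CXCR4. At the lower limit the counts were 21 pairs with both genes, 12 with the receptor alone, 9 with the ligand alone and 3 with neither. These counts go by the mean, and on replicate 1 GAS6 (9.99) and PDGFD (10.066) read below the upper limit. Pairs that share a gene are not independent, and a level of mRNA says nothing of secretion or binding.

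**Figure D4:**
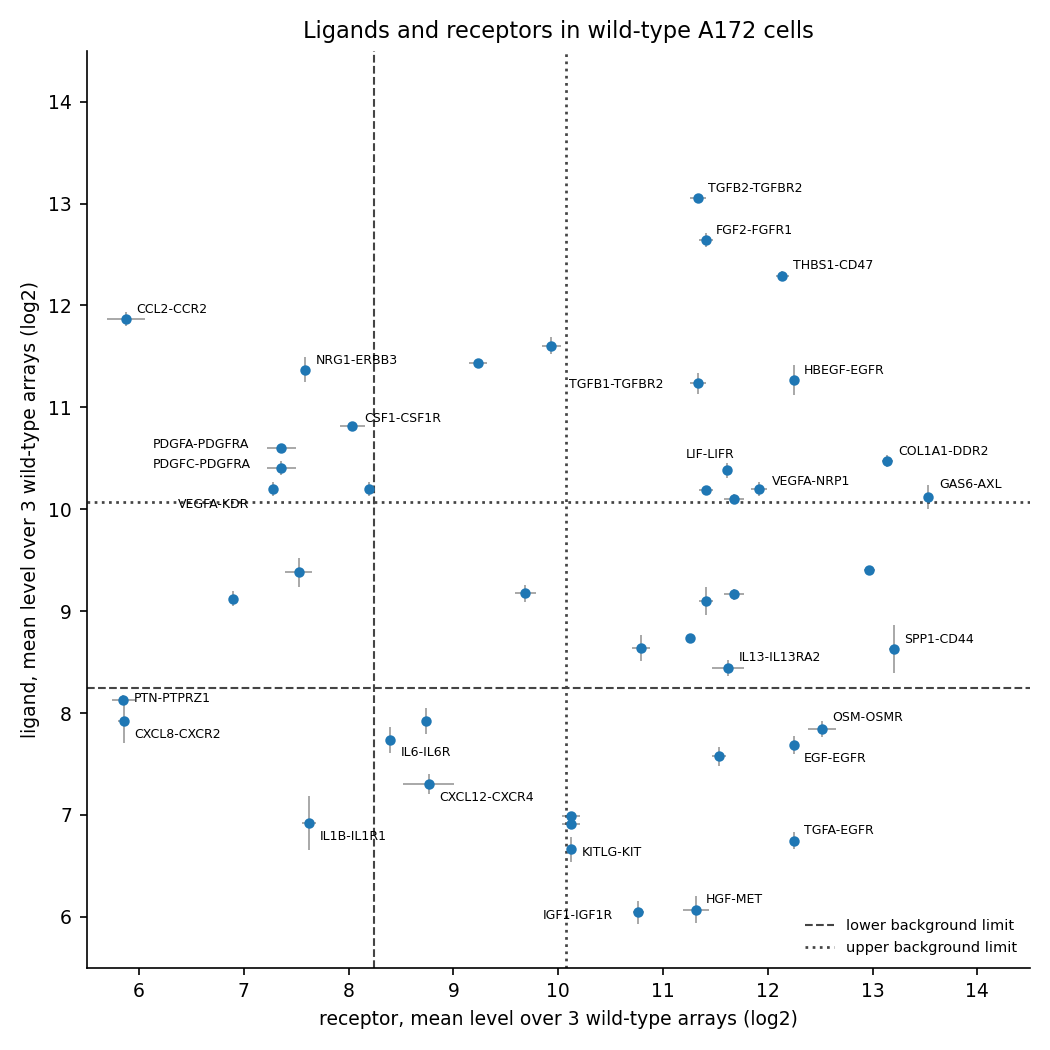
Mean level of the ligand (y axis, log2) against that of its receptor (x axis, log2) over the 3 wild-type arrays for 45 pairs, with SDs as bars and some pairs named. The dashed lines are the lower limit (8.25) and the dotted lines the upper limit (10.07). The upper right field holds 11 pairs, while MET, EGFR and IGF1R appear at the lower right with ligands near background and CCL2, PDGFA and PDGFC at the upper left with receptors near background.

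Tumour suppressors were mostly above the lower limit, as most genes were. Of 44 measured 4 were high, 36 middling and 4 near background, and 23 lay above the upper limit. For all genes the shares were 10.0%, 56.9%, 33.1% and 34.8%. RB1, the brake on entry into S phase, read 12.49, 12.40 and 12.51. NF1, an inhibitor of RAS, stood at 12.51 ± 0.04 by its brightest probe set and 10.52 by its dimmest. FUBP1 (11.89 ± 0.05) and SMAD4 (11.85 ± 0.08) were the other high members. The cyclin-dependent kinase inhibitors were spread out, with CDKN1A at 11.03, 11.05 and 11.12, CDKN1C at 10.34 ± 0.05, CDKN1B at 10.25 ± 0.10, CDKN2D at 9.30 ± 0.02, CDKN2B at 7.89 ± 0.13 and CDKN2A at 7.67 ± 0.02. CDKN2A, CDKN2B, CDH1 and the netrin receptor DCC (7.05 ± 0.10) were the 4 members near background. TSC2 (11.50 ± 0.06), the LATS1 (10.99 ± 0.08) and LATS2 (rank 3525) kinases, TSC1 (10.87 ± 0.09), VHL (10.87 ± 0.05), CIC (10.87 ± 0.07) and the chromatin remodeler ATRX (10.61 ± 0.12) lay above the upper limit. NF2 (9.63 ± 0.05), APC (9.67 ± 0.11), PTCH1 (9.76 ± 0.04) and QKI (9.14 ± 0.11) lay between the limits. MGMT, the enzyme that repairs the lesion made by temozolomide, read 8.61, 8.38 and 8.49, above the lower limit on each array and far under the upper.

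The CDKN2A neighbourhood on 9p21, which is often deleted in glioblastoma, held dim and bright genes side by side. Of 20 listed genes 9 were middling and 11 near background (56.9% and 33.1% over all genes). From the telomere inward, KLHL9 read 11.45, 11.46 and 11.48. The metabolic enzyme MTAP, next to CDKN2A, read 6.50, 6.29 and 6.40. CDKN2A read 7.66, 7.69 and 7.64, and CDKN2B read 7.99, 7.74 and 7.94. The next gene, DMRTA1, stood at 9.18 ± 0.08, between the limits. MTAP is a housekeeping enzyme of nearly all cells, and its rank here was 16878 of 18417. The interferon genes of the same stretch, IFNB1 (5.81 ± 0.05), IFNW1 (6.71 ± 0.04), IFNE (4.50 ± 0.11) and IFNA21 (4.24 ± 0.09), and HACD4 (5.45 ± 0.14) were near background, and FOCAD (10.48 ± 0.09), PLAA (11.40 ± 0.06) and TEK farther out lay above the upper limit. DNA copy number was not measured, and a lost gene and a silent one cannot be told apart on these arrays.

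**Figure D5:**
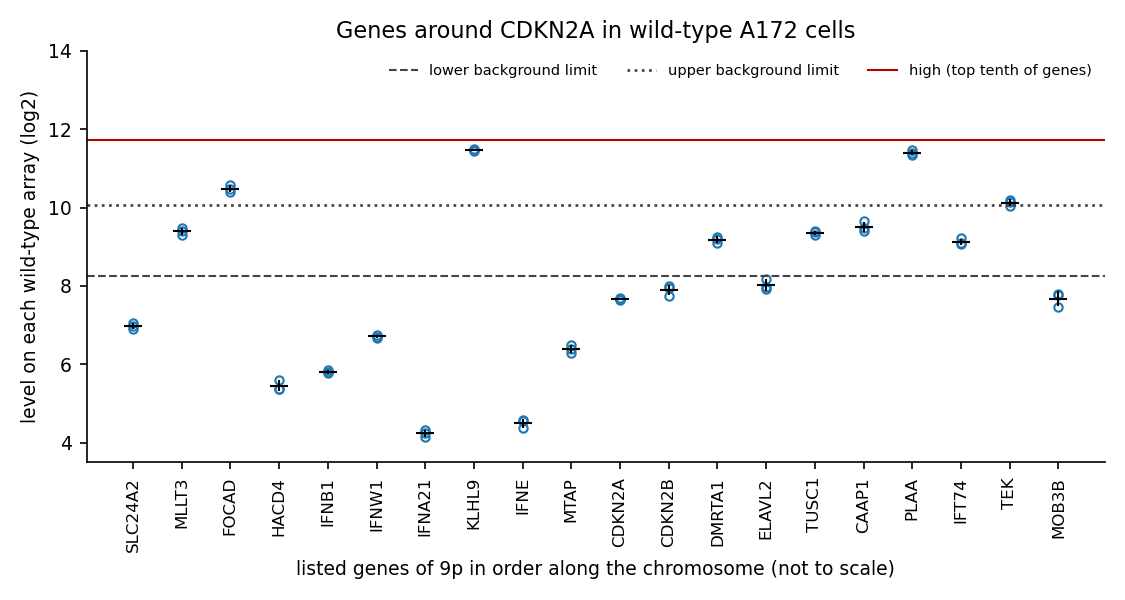
Level on each wild-type array (y axis, log2, open circles), with the mean (tick) and SD (bar), for 20 genes of 9p in their order along the chromosome from the telomere inward (x axis, equal steps, not to scale). IFNE, MTAP, CDKN2A and CDKN2B lie in a run below the dashed lower limit (8.25), between KLHL9 at 11.46 and DMRTA1 at 9.18.

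Drivers of the cell cycle and oncogenes of glioma were often bright, with 11 of 34 high and 24 above the upper limit. Over all genes these shares were 10.0% and 34.8%. CDK4 (13.02, 13.05 and 13.01) and CDK6 (12.87, 12.89 and 12.91), the kinases that CDKN2A restrains, had ranks 288 and 365. Their partners differed, with CCND1 at 12.57 ± 0.08, CCND3 at 11.56 ± 0.04 and CCND2 (7.52, 7.51 and 7.54) near background. BCL2L1 (12.93 ± 0.03) and MCL1 (12.68 ± 0.02), which hold back cell death, and MDM2 (12.12 ± 0.03) were high, and BCL2 (8.82 ± 0.07) and TERT (9.50 ± 0.05) lay between the limits. MYC stood at 11.07 ± 0.05, MYCN at 8.68 ± 0.07 and MYCL at 7.66 ± 0.13. The hedgehog effectors GLI2 (10.28 ± 0.07) and GLI3 (10.24 ± 0.13) lay above the upper limit while GLI1 (7.87 ± 0.08) was near background. The 28 proliferation genes lay above the upper limit without exception and 15 were high, led by CDC20 (12.61 ± 0.03), PLK1 (12.56 ± 0.06), TPX2 (12.51 ± 0.04) and TOP2A (12.32 ± 0.03). MKI67, the Ki-67 antigen, read 11.90, 11.99 and 12.04.

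Antigen presentation genes gave TAPBP (13.08 ± 0.05), B2M (12.41 ± 0.04) and TAP1 (11.06 ± 0.05) above the upper limit, and 5 of 13 in all, beside 34.8% of all genes. The class II genes HLA-DPA1 (7.87 ± 0.13), HLA-DPB1 (7.76 ± 0.06) and HLA-DQA1 (7.37 ± 0.05) and the checkpoint ligand CD274 (7.72 ± 0.12) were near background. CIITA, the activator of class II genes, stood at 8.42 ± 0.08.

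The gene under study, hHSS1, is now EMC10, a subunit of the complex that inserts proteins into the endoplasmic reticulum membrane. Without any transgene EMC10 read 11.13, 10.43 and 10.69, above the upper limit on each array, with a mean of 10.75 ± 0.36 and rank 4267. Replicate 1 was the highest, and the spread was wide for this level. Among genes above the lower limit EMC10 had the seventh largest SD of all. Of the 10 complex genes 8 lay above the upper limit, 1 was high (EMC4, 12.35 ± 0.02) and 0 were near background. Over all genes these shares were 34.8%, 10.0% and 33.1%. EMC7 (11.48 ± 0.09), EMC1 (10.88 ± 0.08), EMC3 (10.82 ± 0.02), EMC2 (10.16 ± 0.05), EMC8 (10.12 ± 0.12) and MMGT1 (10.09 ± 0.13) lay above the upper limit, and EMC6 (9.46 ± 0.06) and EMC9 (8.90 ± 0.08) between the limits. EMC8 (9.99 on replicate 1) and MMGT1 (9.96 on replicate 2) were above the upper limit by their mean and not on each array. The other 9 subunits had SDs of 0.02 to 0.13.

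The 10 genes above background with the largest SD were mainly small nuclear and nucleolar RNAs. They were SNORA14A (7.92, 8.89 and 8.05), SNORD35A (11.48, 12.23 and 11.23), SNORA75 (10.37, 11.22 and 10.68), SNORD32A (10.69, 11.18 and 10.39), RNU4-2 (8.80, 9.45 and 8.80), SNORD13P3 (12.69, 13.14 and 12.42), SCARNA9L (8.49, 9.15 and 9.03), the zinc finger gene ZNF814 (8.97, 9.68 and 9.24), LOC442132 (10.44, 9.82 and 9.90) and EMC10. In 8 of these genes replicate 2 was the highest, and in EMC10 and LOC442132 it was the lowest. HES1, a target of NOTCH, had a wide spread too (10.25, 9.61 and 10.08), as did CXCR4.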

How the data were processed

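RNA from 3 wild-type A172 cultures was biotin-labelled and hybridised to GeneChip Human Gene 1.0 ST arrays by the authors. The deposited values were log2 levels, 1 per probe set and array, already normalized by the authors. The submitters' processing notes name Partek, while how probes were summarized and normalized is not given in the sources. Per the methods, the cultures were biological replicates. Of 33297 probe sets, the annotation of the platform named 1 gene for 19460, several for 1754 and had no entry for 12083. Names were checked against RefSeq (GRCh38.p14) by Entrez number, which found 19429. For the 769 genes with several probe sets the brightest probe set, by its mean on all 12 arrays, stands for the gene. In 277 of these the probe sets differed by over 1 log2 unit, and this is stated for some of the genes named. Counts of list members use the brightest probe set throughout. No further normalization was applied, and each value given is a mean and SD over 3 arrays. The number of arrays limits the precision.

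The members and the 32 gene lists were chosen with earlier results of these data known. Of 1032 listed genes, 940 had a probe set with a single symbol, and the rest were not analysed here. Named were the 20 brightest genes, up to 8 of the brightest and 6 of the dimmest of each list, cell type markers, pair genes, some tumour suppressors, the 10 genes of the largest SD and EMC10. Tumour suppressors were to be named whatever their level, but part of the 44 measured were left out. Other members, named to complete a family, a pathway or a count, were chosen after their values were seen. No test was run, since no groups were compared. Calculations used Python 3.11.15, pandas 2.3.3 and NumPy 2.4.6, and figures matplotlib 3.10.9. The rule for the bands was run on simulated data with silent and expressed genes far apart and reference genes taken from the silent ones. Such a run checks the code and cannot show where a limit should lie among the real levels.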

Additional observations from a re-analysis of the deposited data

How the results depend on the processing

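No paired analysis was possible because no groups were compared. The background limit decided most. With the limit set by the hair, taste and defensin genes (10.07), middling genes numbered 4558, near-background genes 12017, and listed genes above background 345 in place of 620. Limits from the 90th and 99th percentiles of olfactory receptors (7.80 and 9.07) or from genes specific to other organs (8.37) gave 4686, 8785 and 6458 near-background genes and 698, 470 and 599 listed genes above. Calling the top 5% or 20% high gave 921 or 3683 high genes by construction. With genes of 1 probe set alone the median of the listed genes was 9.03 in place of 9.07. Taking the median over probe sets moved the levels of 28 of 963 named or listed genes by at least their SD and 9 to another band, and quantile normalization moved 10 levels and 0 bands. Without each replicate in turn, near-background genes numbered 5953 to 6123 and listed genes above background 619 to 624. An array has no read depth, so that a dim gene cannot be told from background except by its level.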
